A study of Mus musculus with 18 samples.

Results

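The posterior Hoxa genes are Hoxa9, Hoxa10, Hoxa11 and Hoxa13, the 4 genes at the 5′ end of the mouse HoxA cluster on chromosome 6. Binding sites of the transcription factors Pitx1 and Tbx5 at these genes were taken from chromatin immunoprecipitation followed by sequencing (ChIP-seq) of limb buds of wild type CD1 embryos, an outbred strain. The Pitx1 sample came from hindlimb buds of stage e11.5 and the Tbx5 sample from forelimb buds of stage e10.5, each made with a homemade antibody and read as paired ends. The unit was the summit, the highest point of a peak, with coordinates on build mm10. A summit belonged to a gene when that gene was the nearest protein-coding gene within 100 kb, with distance 0 for positions inside a gene. By this rule 26 of 54941 Pitx1 summits and 4 of 10273 Tbx5 summits lay at the 4 genes. The effects of factor, limb, stage and antibody cannot be told apart, since the 2 samples differ in all of them, and with 1 sample per factor no value has a replicate error and no test was made. The lists hold no expression values, so the tissue labels were not checked against marker genes.

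Hox genes encode homeodomain proteins and are ordered along the chromosome as they are activated along the body and the limb. In the limb, Hoxa9 and Hoxa10 act with their Hoxd counterparts mainly on the proximal segment, Hoxa11 on the zeugopod, which forms the forearm or shank, and Hoxa13 on the autopod, which forms the hand or foot. Pitx1 is a homeodomain protein of the hindlimb that binds bicoid-type sequences, and Tbx5 is a T-box protein needed for forelimb outgrowth. Limb buds mix cells of all segments, so occupancy in fewer cells and weaker occupancy in each cell cannot be told apart in these maps.

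Pitx1 summits lay along the whole stretch, whereas the 4 Tbx5 summits lay at the Hoxa9 end. All 4 genes had Pitx1 summits, beside 55.1% of the 21887 protein-coding genes. Only Hoxa9 and Hoxa10 of the 4 had Tbx5 summits, beside 18.8% of all genes, and Hoxa10 rested on 1 summit that lies inside the non-coding gene Gm52902 and closer to the start of Hoxa9 than to a start of Hoxa10. Hoxa9 (52223097 to 52227370) held 3 Pitx1 and 3 Tbx5 summits. Hoxa10 (52231197 to 52240854) held 4 and 1. Hoxa11 (52242105 to 52245810) held 4 Pitx1 summits, and Hoxa13 (52258853 to 52260880) held 15, with no Tbx5 summit at either. All 4 genes are read from the minus strand, so their starts are at the higher coordinate.

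A pair of promoter windows in the stretch held a Pitx1 summit, and they are printed for that reason. Each is the 250 bases before a transcription start, read 5′ to 3′ on the strand of the gene, from RefSeq on GRCm38.p6, the assembly that mm10 represents. The first precedes the second, inner start of Hoxa10 and covers chromosome 6, 52234940 to 52235189, minus strand, inside the Hoxa10 gene. The second precedes Hottip, a long non-coding RNA that helps to keep the posterior Hoxa genes active, and covers 52262525 to 52262774, plus strand. Capitals mark motif matches.
Hoxa10 inner promoter: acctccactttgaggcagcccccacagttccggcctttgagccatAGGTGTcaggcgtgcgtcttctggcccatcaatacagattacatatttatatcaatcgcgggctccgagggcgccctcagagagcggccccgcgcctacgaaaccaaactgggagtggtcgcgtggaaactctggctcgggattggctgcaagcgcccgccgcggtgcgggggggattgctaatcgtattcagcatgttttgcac
Hottip promoter: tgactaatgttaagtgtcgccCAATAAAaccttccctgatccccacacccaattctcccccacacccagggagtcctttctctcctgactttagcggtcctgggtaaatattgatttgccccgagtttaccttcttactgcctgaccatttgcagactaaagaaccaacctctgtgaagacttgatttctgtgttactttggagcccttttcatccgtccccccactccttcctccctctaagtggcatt
The Pitx1 summit of the Hoxa10 window, at position 52235148, is base 42 counted from 1 at the 5′ end of the printed sequence, 209 bp before the start. The Hottip summit, at 52262549, is base 25 of its sequence, 226 bp before the start.

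The motifs searched on both strands of each window were TAATCC (the bicoid-type word), AGGTGT (a T-box core word), and TTTATGG and TTTATTG (words of the posterior Hox type), of which the last 2 share their first 5 letters and cannot match at the same place. The Hoxa10 inner window held 1 match to AGGTGT, at bases 46 to 51. The Hottip window held 1 match to TTTATTG in reverse, CAATAAA, at bases 22 to 28, a stretch that includes the summit base. Of 32851 windows in the table, 11.8% held AGGTGT and 4.20% held TTTATTG, and of the 2531 windows with a Pitx1 summit, 9.96% and 3.79% did. TAATCC stood in 6.25% of all windows and in 12.9% of those with a Pitx1 summit, and TTTATGG in 2.43% and 1.78%. Of the 7 windows read here (5 of the 4 genes, 1 of Hottip and 1 of Hoxa11os), none held TAATCC or TTTATGG. A match is a description of the letters, and windows without one say nothing about binding elsewhere. Of the 5 windows of the 4 genes, 1 held a Pitx1 summit, beside 7.70% of all windows, and none held a Tbx5 summit, beside 0.974%.

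Between Hoxa9 and Hoxa10 lies Mir196b, at 52230081 to 52230165 on the minus strand. Its main product belongs to the miR-196 family, known for repressing Hox messenger RNAs, and is shown with its seed (bases 2 to 8) in capitals.
mmu-miR-196b-5p: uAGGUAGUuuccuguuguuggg
The nearest Tbx5 summit lay 553 bp from the hairpin, on the side from which it is transcribed, and the nearest Pitx1 summit 807 bp from it on the same side. Both are counted at Hoxa10 below, because they lie closer to that gene than to Hoxa9.

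Hoxa9 carried the highest scores of both factors in the stretch. The score of a summit is the authors' value, read as −log10 of the peak's q-value, and is compared only within its own list. The Pitx1 scores at Hoxa9 were 161 at position 52222485, 3.83 at 52225482 and 510 at 52226452. The Tbx5 scores were 13.2 at 52222128, 220 at 52226296 and 3.60 at 52228104. For each factor a site inside the gene stood far above the other 2. It ranked 17 in the Pitx1 list and 91 in the Tbx5 list. It lies 918 bp inside the gene from its start by the Pitx1 summit and 1074 bp by the Tbx5 summit, which are 156 bp apart. In the whole series, 4 pairs of summits within 200 bp had a rank of 100 or better in both lists, and the others lay inside Pknox2 and Zbtb16 and over 100 kb from any protein-coding gene.

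The second site at Hoxa9 lay beyond the 3′ end of the gene, towards Hoxa7. The Pitx1 summit there was 612 bp and the Tbx5 summit 969 bp outside the gene, 357 bp apart. With a score of 161 the Pitx1 summit ranked 516, while the Tbx5 score of 13.2 ranked 3419 of 10273. The remaining Tbx5 summit, at 52228104, lay 734 bp before the start of Hoxa9, and its nearest Pitx1 summit was 1652 bp away. Its score of 3.60 exceeded 8.17% of the Tbx5 list, so it is among the weaker Tbx5 summits.

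Hoxa10, which has 2 starts in the RefSeq table, held 4 Pitx1 summits of middling to high score. They scored 34.5 at 52230972, 37.3 at 52235148, 7.07 at 52237481 and 29.9 at 52240676. The first lay 225 bp outside the 3′ end of the gene and the other 3 inside it. The summit of 37.3 is the one in the printed inner promoter, and that of 29.9 lay 178 bp inside the gene from its outer start. Both starts of Hoxa10 thus had a Pitx1 summit within 209 bp. Tbx5 had 1 summit, scored 4.13, at 52230718, which lay 254 bp from the Pitx1 summit of 34.5 and 479 bp outside the gene.

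Hoxa11 held 1 Pitx1 summit inside the gene and 3 in the gap towards Hoxa13. Those scored 100 at 52244641, 44.2 at 52247439, 2.89 at 52249353 and 2.03 at 52251292. The summit of 100, rank 1240, lay 1169 bp inside the gene from its start. It was also 602 bp before the start of Hoxa11os, the antisense RNA read across the start of Hoxa11 from the opposite strand. The summits of 44.2 and 2.89 fell inside Hoxa11os (52245243 to 52249769). The nearest Tbx5 summit was 13923 bp from the summit of 100.

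Under this rule Hoxa13 held the most Pitx1 summits, and none of the 15 lay inside the gene, which is 2.03 kb long. In the gap towards Hoxa11, 3 summits scored 7.67, 31.7 and 23.0, at 6.39, 4.50 and 1.57 kb from the gene. The other 12 lay in the flank beyond its start, towards Evx1. The nearest of those was 556 bp before the start and scored 2.89, and the farthest was 20.5 kb away and scored 7.67. The highest of the flank scored 48.2 and lay at 52276543, 15.7 kb before the start. The remaining 11 scored between 2.45 and 9.54, so the flank had many summits of low score and 1 high one. With a score of at least 10 required, Hoxa13 kept 3 summits, as many as Hoxa10, and with the nearest gene of any kind 3, as many as Hoxa9 and Hoxa10.

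**Figure D1:**
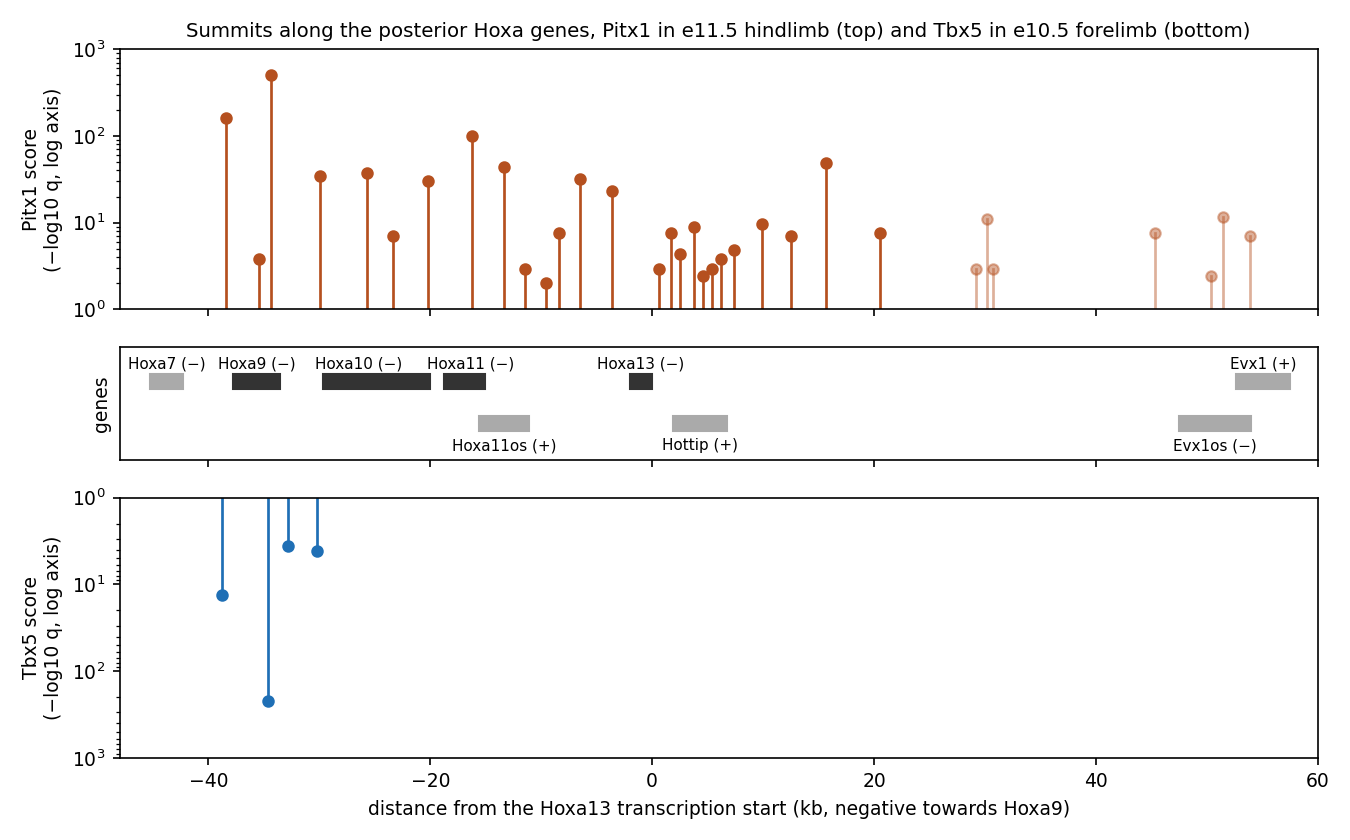
Score of each summit (−log10 q, log axis) against its distance from the Hoxa13 start in kb, for Pitx1 above and Tbx5 below (axis inverted), with the genes and their strands between; pale stems are nearest to Evx1. Pitx1 stems run from Hoxa9 into the flank beyond Hoxa13 and fall from 510 at Hoxa9 to mostly under 10 in the flank. The 4 Tbx5 stems all lie between Hoxa7 and Hoxa10. Summits assigned to Hoxa7 are not drawn.

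Pitx1 summits continued into the flank beyond Hoxa13 at 3.42 per 10 kb, near the 3.50 of the assigned stretch up to the end of Hoxa13. From the Hoxa13 start to the start of Evx1, the next protein-coding gene and a homeobox gene itself, the flank measures 52.6 kb and held 18 Pitx1 summits and no Tbx5 summit. The 12 on the Hoxa13 side amounted to 4.56 per 10 kb, against 2.28 for the 6 on the Evx1 side, which had a median score of 5.28. The gap between Hoxa11 and Hoxa13 held 4.60 per 10 kb. Of the 12, 5 fell inside Hottip (52262775 to 52267603), with scores of 2.45 to 8.90. At the 4 genes as a whole, 15 of 26 Pitx1 summits (57.7%) had another Pitx1 summit within 2 kb, beside 26.2% of the whole list. Median distance to the nearest other Pitx1 summit was 1.91 kb for the 26, 0.979 kb for the 12 of the flank and 6.56 kb for the whole list. The peaks carry numbers in genome order, from 55478 to 55506 for the 26, and 3 of these 29 numbers (10.3%) are absent from the list, beside 22.2% of all Pitx1 numbers.

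The last Tbx5 summit of the stretch lay between Hoxa9 and Hoxa10. After the summit at 52230718 the next one lay at 52371170, 140 kb further and 110 kb beyond the start of Hoxa13. Between these positions were 34 Pitx1 summits with scores of 2.03 to 100, from a list with 5.35 summits per Tbx5 summit. The usual spacing of Tbx5 summits was not computed, so the gap is not shown to be long for that list. The 4 Tbx5 summits carry the numbers 12656 to 12659 and the next one 12660, so no numbered Tbx5 peak of this interval is missing from the list. That next summit, nearest to Evx1 and 52.8 kb outside it, ranked 3963 in the Tbx5 list and was 26 bp away from a summit of Pitx1 scored 105. It belongs to none of the 4 genes under the rule.

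A site was called shared when summits of both factors were at most 200 bp apart. Of the 4 Tbx5 summits, the one inside Hoxa9 was shared. This is 25.0% (exact Clopper-Pearson 95% interval 0.631 to 80.6) of the Tbx5 summits, beside 39.5% of the whole Tbx5 list. It is 3.85% (0.0973 to 19.6) of the 26 Pitx1 summits, beside 7.39% of the whole Pitx1 list. Hoxa9 was thus the 1 gene of the 4 with a shared site, beside 8.85% of all protein-coding genes. Within 500 bp, 3 of the 4 Tbx5 summits had a Pitx1 partner, beside 49.1% of the list, at 156, 254 and 357 bp. In these 3 pairs the Pitx1 scores were 510, 34.5 and 161 and the Tbx5 scores 220, 4.13 and 13.2. The intervals, here and below, hold counting error only and treat summits as independent draws, which neighbouring summits of 1 sample need not be. With 4 summits the shared share is left almost undetermined.

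Most Pitx1 summits of the stretch lay outside the 4 protein-coding bodies. Inside them were 6 of 26, or 23.1% (exact 95% interval 8.97 to 43.6), beside 49.4% of the whole list inside a protein-coding gene. Another 8 lay inside the non-coding genes Hottip, Hoxa11os and Gm52902, and 12 in none of the genes named here. For Tbx5 it was 1 of 4, beside 46.6%. The 4 bodies measure 4.27, 9.66, 3.71 and 2.03 kb of the 66.4 kb assigned to the genes, so most of that sequence also lies outside them. The comparison with the whole lists was not adjusted for this. The stretch of 1.25 kb between Hoxa10 and Hoxa11 and the body of Hoxa13 held no summit of either factor.

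Scores fell off beyond Hoxa13. The 14 Pitx1 summits from the Hoxa9 side to the end of Hoxa13 had a median score of 30.8, between 2.03 and 510, and the 12 of the flank a median of 5.95, between 2.45 and 48.2. The median of all Pitx1 summits was 7.07. At or above 15.1, the upper quartile of the whole list, were 9 of the 14 and 1 of the 12, against 25.9% of all summits. By gene, the medians were 161 at Hoxa9, 32.2 at Hoxa10, 23.5 at Hoxa11 and 7.67 at Hoxa13, each from at most 15 summits of wide spread, so the order of the first 3 rests on 3 or 4 values each and their ranges overlap.

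**Figure D2:**
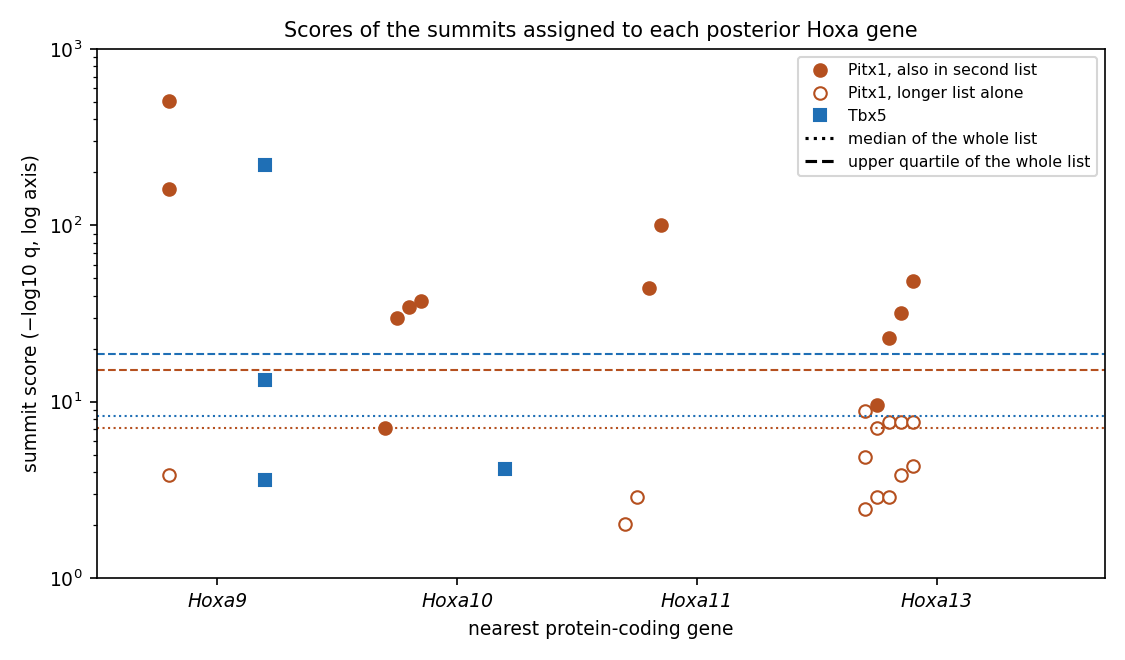
Score of each summit (−log10 q, log axis) by the gene it was assigned to, with Pitx1 as circles and Tbx5 as squares; filled circles are also in the second Pitx1 list, and lines give the median (dotted) and upper quartile (dashed) of each whole list in the colour of the factor. All Pitx1 circles above the dashed line at 15.1 are filled, and most of those at Hoxa13 lie under it and are open.

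A second, shorter Pitx1 list deposited for the same sample is a subset of the longer one and is not a replicate. It kept 12 of the 26 summits, or 46.2% (exact 95% interval 26.6 to 66.6), beside 32.4% of the longer list. It kept 2 of 3 at Hoxa9, with scores of 161 and 510, all 4 at Hoxa10, 2 of 4 at Hoxa11 and 4 of 15 at Hoxa13. Of the 10 summits at or above a score of 15.1, all 10 were kept, beside 76.4% of such summits in the list. Of the 16 below it, 2 were kept, beside 17.0%. Among the 12 of the flank, 2 were kept, with scores of 9.54 and 48.2, and none of the 5 inside Hottip.

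The genes are short and closely packed, so the counts were also set against the length of sequence assigned to each gene, its domain. Domains measured 8.45 kb for Hoxa9, 12.2 kb for Hoxa10, 10.9 kb for Hoxa11 and 34.9 kb for Hoxa13. Pitx1 density was 3.55 summits per 10 kb at Hoxa9, 3.28 at Hoxa10, 3.69 at Hoxa11 and 4.30 at Hoxa13. These are near each other, and of all protein-coding genes 0.644%, 0.758%, 0.599% and 0.425% reached as high a density. The median over genes with a Pitx1 summit was 0.333. Counts alone were less extreme, with 21.1% of genes holding at least the 3 summits of Hoxa9 and 2.42% at least the 15 of Hoxa13. For Tbx5, Hoxa9 had 3.55 per 10 kb, a density reached by 0.0228% of genes, and Hoxa10 had 0.820, reached by 0.644%. By count, 3.53% of genes held at least the 3 Tbx5 summits of Hoxa9 and 18.8% at least the 1 of Hoxa10. The Hoxa10 density is thus 1 summit in a short domain of 12.2 kb, beside a median domain of 45.8 kb over all genes. Neighbouring genes share their surroundings, so the 4 values are not independent of each other.

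Hoxa2 to Hoxa7 of the same cluster and the posterior genes of HoxD, Hoxd9 to Hoxd13, are the loci set beside the 4 genes. The domains of Hoxa9 to Hoxa13 together held 3.92 Pitx1 and 0.603 Tbx5 summits per 10 kb. Those of Hoxa2 to Hoxa7 held 5.53 and 1.17, and those of Hoxd9 to Hoxd13 5.59 and 0.799. Counted only between the outer ends of the genes, a measure added after the data were examined, the Pitx1 densities were 3.44, 5.70 and 5.63. For Tbx5 they were 0.794, 1.25 and 0.938. By either measure, with summits of any score counted, the density at the posterior Hoxa genes was the lowest of the 3 loci for both factors. For Tbx5 this order rests on 4, 7 and 3 summits in the domains. At or above the Pitx1 upper quartile of 15.1 the loci held 10, 6 and 4 summits, in domains of 66.4, 59.6 and 37.5 kb. For such summits the posterior Hoxa genes had the highest density of the 3 loci, so the Pitx1 order depends on the score counted, and it rests on these small counts. The highest scores at the posterior Hoxa genes were also above those of the other loci. The highest Pitx1 score was 510 at the posterior Hoxa genes, 89.3 at Hoxa2 to Hoxa7 and 65.2 at the posterior Hoxd genes, and the highest Tbx5 scores were 220, 115 and 17.8. The second list kept 12 of 26, 10 of 33 and 5 of 21 Pitx1 summits. Shared within 200 bp were 1 of 4, 5 of 7 and 3 of 3 Tbx5 summits. No test was made between the loci, which have 1 sample per factor.

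**Figure D3:**
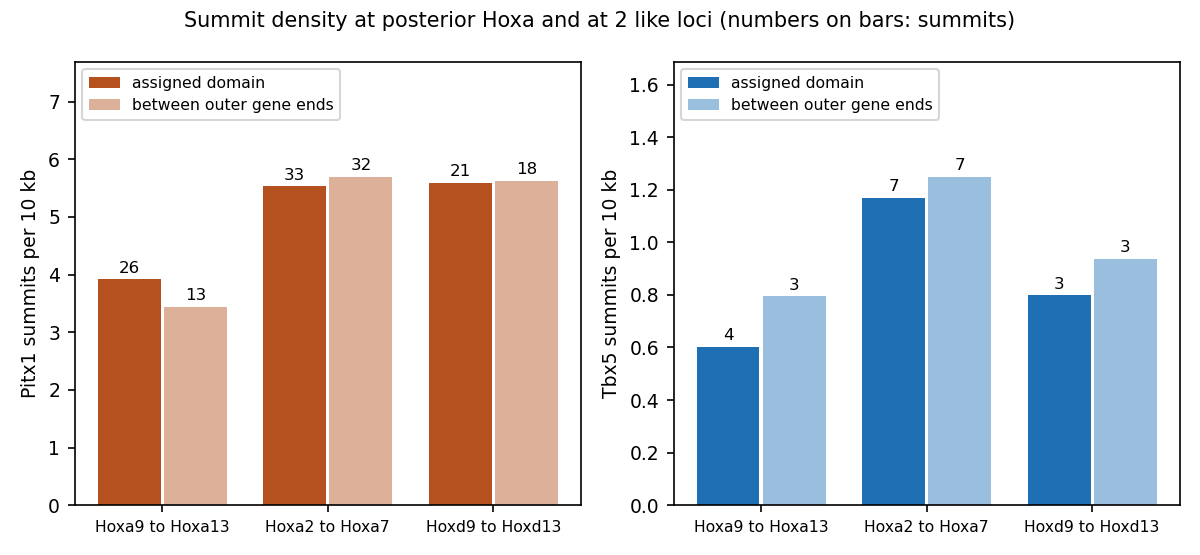
Summits per 10 kb of sequence for Pitx1 (left) and Tbx5 (right) at Hoxa9 to Hoxa13, Hoxa2 to Hoxa7 and Hoxd9 to Hoxd13, in the assigned domains (dark bars) and between the outer ends of the genes (pale bars); numbers on the bars are summits. With summits of any score counted, Hoxa9 to Hoxa13 have the lowest Pitx1 bars both in the domains (3.92 against 5.53 and 5.59) and between the gene ends (3.44 against 5.70 and 5.63). Summits at or above the upper quartile, for which their domains had the highest Pitx1 density, are not drawn apart.

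Genes that act with the posterior Hoxa genes were counted in the same way. All 12 paralogs of groups 9 to 13 in the other clusters had Pitx1 summits, between 2 at Hoxd12 and 11 at Hoxb9 and Hoxc11, with a median of 6.50, beside 55.1% of all protein-coding genes and a median of 1.00. The highest Pitx1 score was below 10 at Hoxb9 (7.07), Hoxb13 (8.90) and Hoxd12 (5.92). At the other paralogs it ran from 14.4 at Hoxd13 to 144 at Hoxc11. Tbx5 summits were assigned to 2 of the 12, a share near the 18.8% of all genes, namely Hoxd9 with 2 and Hoxd11 with 1, and all 3 were shared with Pitx1. The 5 Hoxc paralogs, Hoxc9 to Hoxc13, had none, beside 38 Pitx1 summits in all, the highest at Hoxc11 with a score of 144. Evx1 and Evx2, the homeobox genes next to the HoxA and HoxD clusters, held 13 Pitx1 and 1 Tbx5 summit each. Of 6 genes for Meis and Pbx proteins, which bind DNA with Hox proteins, 5 had Pitx1 and 3 had Tbx5 summits, beside 55.1% and 18.8% of all genes. Meis1 held 30 and 10, Meis2 24 and 9, and Pbx3 28 and 6, in domains of 318 kb or more. Meis3 and Pbx4 held 1 Pitx1 summit each and Pbx2 none of either factor.

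For each of the 4 genes, the genes outside the Hox clusters with the same pair of counts and the nearest domain length were found, over the 2 samples. Hoxa9, with 3 Pitx1 and 3 Tbx5 summits, shared its pair with 12 genes, and the nearest in domain length were Ubl4b (39.2 kb) and Chd3 (42.1 kb), more than 4 times as long. The pair of Hoxa10 (4 and 1) was found at 231 genes, the nearest being Hsd11b2 (16.3 kb) and Ndufa4l2 (8.11 kb). That of Hoxa11 (4 and 0) was found at 410 genes, the nearest being Nab2 and Foxc2, with domains 1.01 times as long as that of Hoxa11. Hoxa13, with 15 and 0, shared its pair with 19 genes, of which Irf2bpl (89.9 kb) and Notch1 (90.4 kb) came nearest to its 34.9 kb.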

How the data were processed

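The authors deposited, for each factor, a list of peak summits with position, name and score, on build mm10 per the labels. MACS2 2.1.1.20160309, HOMER, Bowtie2 2.2.6 and Bowtie 1.1.2 were used in roles that are not stated, per the submitters' processing notes. The deposited score was read as −log10 of the q-value, which MACS2 writes to summit files. The second deposited Pitx1 list adds a further score that no source explains and that was not used. The labels name an input sample of the same limb and stage for each factor, but not whether it served as control in peak calling. Also not given in the sources used here are read depth, any pooling and any later filter, so intervals hold counting error only. The 16 samples of histone marks and inputs were not analysed here.

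Positions were written 1-based. Summits were assigned to the nearest of 21887 protein-coding genes of the RefSeq table (GRCm38.p6), a summit equally near to several genes counting for each. This step was checked on simulated intervals. Promoter windows existed for 17492 of these genes, and exons were not given, so exonic and intronic positions are not stated. Scripts used Python 3.11.15 and numpy 2.4.6. Named genes were the 4 genes, their neighbours, listed paralogs and cofactors, and genes with the same pair of counts. Other names (genes of the other high-ranking pairs, and paralogs or cofactors with Pitx1 summits alone) were chosen after their values were seen. The genes and lists were chosen with earlier results of these data known. Alternatives covered the distance limit, gene set, score, Pitx1 list, start sites and sharing distance. Some planned genes of the comparison loci and lists are not reported here.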

Additional observations from a re-analysis of the deposited data

How the results depend on the processing

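The 26 Pitx1 and 4 Tbx5 summits kept their totals within 1.5 times when assignment stopped at 20 or 50 kb or used the nearest transcription start. Assigning to the nearest gene of any kind, which gives summits to Hottip, Hoxa11os and other non-coding genes, left 10 Pitx1 and 2 Tbx5 summits. Requiring a score of at least 10 left 10 and 2, and a score at or above the list median 17 and 2. The second Pitx1 list gave 12 Pitx1 summits and the highest-scoring Pitx1 summits, as many as the Tbx5 list, 10. Between the outer ends of the genes, an alternative chosen after seeing the data, were 13 Pitx1 and 3 Tbx5 summits. Hoxa13 fell from 15 Pitx1 summits to 3 with the nearest gene of any kind, a score of at least 10 or the highest-scoring summits, and to 4 in the second list, in each case as many as Hoxa10, and it held 9 with scores at or above the median. The 1 Tbx5 summit of Hoxa10 was lost (0) with the nearest gene of any kind, the nearest transcription start and both score limits. The number of shared sites was 1, 0 within 100 bp, 3 within 500 bp and 3 within 1000 bp, and 1 under the other alternatives run. No paired analysis was possible because the result comes from no test and each factor has 1 sample. Read depth is unknown, so a stretch without a Tbx5 summit is not shown to be unbound, and the longer Pitx1 list cannot be read as more binding.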
